A study of Homo sapiens with 6 samples.

Results

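The nuclear-encoded subunits of the mitochondrial respiratory chain and of ATP synthase were followed in human embryonic stem cells with and without a knockdown of NPM1. Genes were taken by symbol, and 77 of the 62703 genes of the table matched. They comprised 36 genes of complex I (NDUF genes), 4 of complex II (SDH genes), 8 of complex III (UQCR genes), 11 of complex IV and 18 of ATP synthase. NDUFA4, which carries a complex I name, was counted with complex IV, where its protein is now placed. The 11 genes of complex IV were therefore 10 COX genes and NDUFA4. Among others, the symbols left out NDUFAB1, a subunit of complex I, CYC1, the cytochrome of complex III, and tissue isoforms such as COX6B2. These are described further on among the other genes of the pathway.

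The cells were H9, an established human embryonic stem cell line, with the cell type label hPSCs (human pluripotent stem cells). Of the 6 RNA-seq libraries, 3 came from cells given a small interfering RNA against NPM1 (siNPM1; the treatment label reads siB23, B23 being a second name of that protein) and 3 from cells given a control (siControl), described by the submitters as biological replicates. All came from the same line, and the labels state no duplex sequence, dose or time after transfection. NPM1, or nucleophosmin, is an abundant nucleolar protein.

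The respiratory chain, in the inner mitochondrial membrane, passes electrons from NADH and succinate to oxygen and pumps protons across that membrane. Complex I oxidises NADH, complex II oxidises succinate within the citric acid cycle, complex III passes electrons from ubiquinol to cytochrome c, and complex IV reduces oxygen to water. ATP synthase lets the protons flow back and makes ATP. Apart from complex II, which is wholly encoded in the nucleus, these machines join subunits from nuclear genes with subunits from the mitochondrial genome, so that each is built from transcripts of both. Human pluripotent stem cells make much of their ATP by glycolysis, while holding an assembled respiratory chain.

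The values were TPM, which scale a gene's reads by transcript length and by the total of the library. TPM keeps no sequencing depth, so the depth behind each value was unknown and no counting interval could be given. NPM1 itself, on chromosome 5 (171387116 to 171411137, GRCh38), was at 3109, 2969 and 3132 TPM under siControl and at 173.2, 164.8 and 238.2 TPM under siNPM1, a log2 fold change of -4.01 ± 0.157 (SE; limma, adjusted p = 0.000852). SiControl replicate 2 stood apart from the other control libraries. Transcripts of the mitochondrial genome held 11, 23.3 and 11.1% of TPM under siControl and 18.6 to 21.6% under siNPM1, and cytosolic ribosomal protein genes held 25.2, 17.7 and 25.8% and 20.4 to 22.5%. Since 2 of 3 control libraries thus differed from the third in the make-up of their RNA, the calls that appear without that library are given beside the values from all 6. All 8 pluripotency markers were detected, summing to 4172 to 4281 TPM under siControl and 3375 to 3961 TPM under siNPM1. Of them, 3 were lower in all siNPM1 libraries: POU5F1, TDGF1 and NANOG. POU5F1 was at 1706 to 2266 TPM under siControl and 1375 to 1393 TPM under siNPM1, and TDGF1 at 764.7 to 859.0 and 450.4 to 475.8 TPM. The other 5, DNMT3B and SOX2 among them, were higher on average, with overlapping groups. The median log2 fold change of these markers was 0.07, so the lower sum does not describe most of them. The 6 neuroectoderm markers summed to 163.3 to 220.3 TPM under siControl and 267.2 to 303.1 TPM under siNPM1. Of them NES, ZIC1 and OTX2 were higher in all siNPM1 libraries, while TUBB3, PAX6 and SOX1 overlapped. The largest were NES, at 68.9 to 84.3 TPM under siControl and 102.6 to 147.6 TPM under siNPM1, and TUBB3, at 78.4 to 115.8 and 93.3 to 117.8 TPM. In the same order, the 7 fibroblast markers summed to 401.1 to 430.3 and 132.8 to 349.1 TPM. The 7 trophoblast or amnion markers summed to 98.6 to 126.0 and 80.4 to 90.7 TPM (DCN, LUM and CGA were listed at 0). Most of this last sum was GABRP, at 94.2, 121.6 and 106.8 TPM under siControl and 71.4, 82.4 and 74.1 TPM under siNPM1. By contrast, KRT7 (5.36 to 9.68 against 3.44 to 3.64 TPM) and TFAP2A (0.15 to 9.18 against 0.04 to 0.1 TPM) were higher in all siNPM1 libraries. Most of the fibroblast sum was THY1, at 388.6, 368.8 and 363.6 TPM under siControl and 90.4, 275.4 and 304.6 TPM under siNPM1. COL1A1 was higher in all siNPM1 libraries (14.5 to 18.8 against 5.72 to 9.7 TPM). COL1A2 was at 26.1 to 35.9 TPM over the 6 libraries, and COL3A1 was at most 0.02 TPM. The fibroblast sum thus followed mainly 1 gene and does not measure a content of fibroblasts. SiNPM1 replicate 1 stood apart in these markers, with the lowest THY1 and, at 238.8 and 45.2 TPM, the highest SOX2 and OTX2 of the 6 libraries. Without it, 0 subunit genes passed the threshold described below by limma, where 11 of all 15768 genes tested passed. The subunits' median log2 fold change was then -0.13, and that of all genes 0.09. The 6 endoderm and 6 mesoderm markers summed to at most 3.75 and 8.55 TPM. The part that these marker lists play in the subunit levels was not tested.

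Many promoters of respiratory chain genes carry short elements bound by the transcription factors NRF1, ETS family members and YY1, and such elements have been a guide to how these scattered genes are expressed together. Promoter sequences from RefSeq (GRCh38.p14), each running from 250 bases before to 50 bases after a transcription start, matched 63 of the 77 genes by symbol and gave 75 windows. The NRF1 motif, GCGCA and GCGC with any 1 base between them, was searched on both strands like the other motifs and was present in 16 windows (21.3%), against 5.78% of all 35116 promoter windows of the same length. The ETS motif CCGGAAG was present in 22 windows (29.3% against 10.3%) and the YY1 motif AAGATGGCG in 10 (13.3% against 1.75%), whereas the TATA motif TATAAA was present in 6 (8.0% against 11.5%). At least 1 of the NRF1, ETS and YY1 motifs lay in a window of 39 genes. The 4 windows below belong to the complex I genes at both ends of the range of fold changes, NDUFB4 and NDUFS4 at the lower end and NDUFV3 and NDUFA9 at the upper end, and show that members of the same complex differ in these motifs. Capitals mark matches of the NRF1, ETS and YY1 motifs, and TATA matches are left in lower case: 3 NRF1 matches for NDUFB4 (chr3:120596086-120596385, plus strand), a YY1 match for NDUFS4 (chr5:53560389-53560688, plus strand), none of these for NDUFV3 (chr21:42893059-42893358, plus strand), and an NRF1 and a YY1 match for NDUFA9 (chr12:4648864-4649163, plus strand). A match is a description of the letters only.
NDUFB4: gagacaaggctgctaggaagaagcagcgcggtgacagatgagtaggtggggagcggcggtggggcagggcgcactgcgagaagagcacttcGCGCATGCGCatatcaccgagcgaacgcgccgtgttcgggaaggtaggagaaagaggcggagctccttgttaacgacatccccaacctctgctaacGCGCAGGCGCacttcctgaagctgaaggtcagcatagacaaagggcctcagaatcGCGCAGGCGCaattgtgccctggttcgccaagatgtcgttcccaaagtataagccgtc
NDUFS4: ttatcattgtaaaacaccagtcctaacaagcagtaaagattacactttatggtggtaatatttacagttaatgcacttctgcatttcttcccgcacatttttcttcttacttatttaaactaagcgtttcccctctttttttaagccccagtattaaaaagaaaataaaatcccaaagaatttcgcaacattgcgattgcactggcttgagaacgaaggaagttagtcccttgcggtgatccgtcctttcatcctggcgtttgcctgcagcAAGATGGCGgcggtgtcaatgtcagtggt
NDUFV3: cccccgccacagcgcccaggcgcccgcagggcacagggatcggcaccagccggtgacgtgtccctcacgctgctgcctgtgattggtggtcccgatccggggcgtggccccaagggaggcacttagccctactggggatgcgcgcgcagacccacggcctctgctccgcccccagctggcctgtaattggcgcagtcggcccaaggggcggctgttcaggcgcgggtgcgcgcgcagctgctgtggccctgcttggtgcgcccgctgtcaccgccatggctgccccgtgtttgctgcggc
NDUFA9: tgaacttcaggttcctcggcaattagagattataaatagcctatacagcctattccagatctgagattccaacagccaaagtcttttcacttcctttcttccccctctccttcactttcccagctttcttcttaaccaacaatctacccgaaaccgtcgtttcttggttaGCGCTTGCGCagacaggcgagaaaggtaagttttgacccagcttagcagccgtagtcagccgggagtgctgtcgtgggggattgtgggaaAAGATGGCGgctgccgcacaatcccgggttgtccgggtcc

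Subunit transcripts were abundant but far from equal within each complex. The mean over the 6 libraries ran from 6.01 TPM to 1430 TPM among the 76 genes with at least 1 TPM, with a median of 156.4 TPM against 11.1 TPM for all 15768 genes at that level. A mean of at least 100 TPM was reached by 53 genes, and a mean of at least 1000 TPM by 4: ATP5MF, UQCRH, COX7C and ATP5ME, each the transcript of a small accessory subunit. The remaining gene, ATP5MGL, which encodes a protein resembling the g subunit of ATP synthase, was listed at 0 in 5 libraries and at 0.14 TPM in siNPM1 replicate 1, and was not tested.

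**Figure D1:**
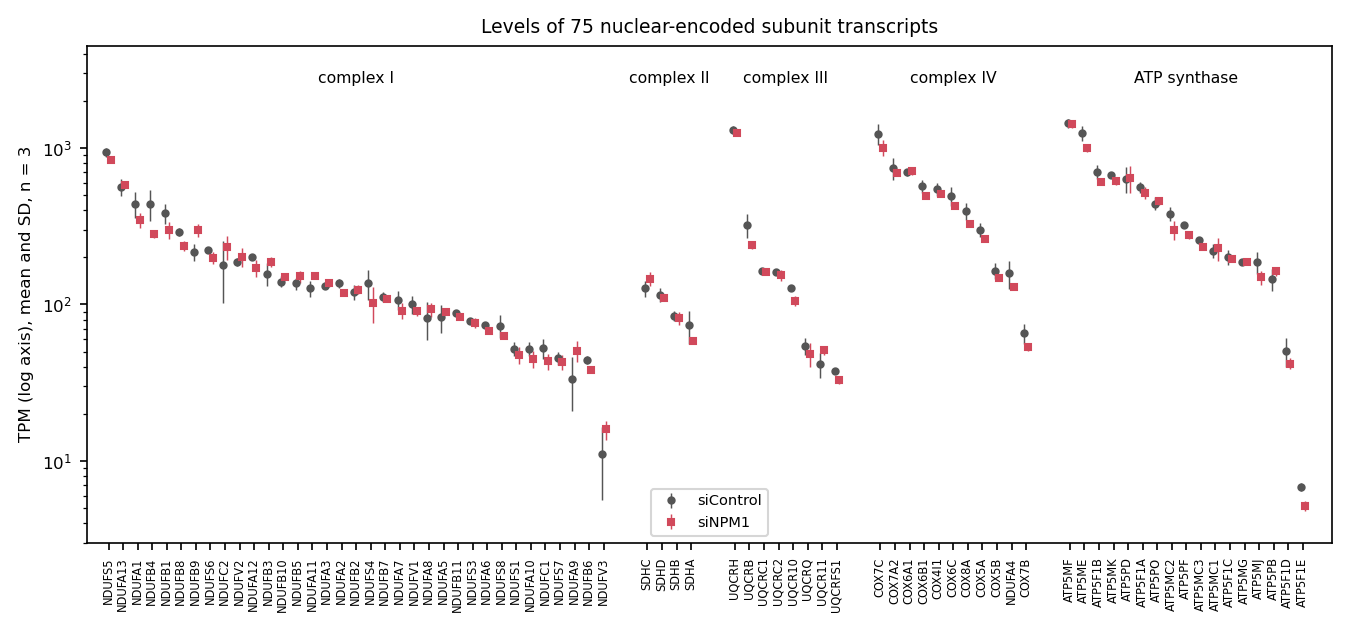
Level of 75 subunit transcripts in TPM on a log axis, grouped by complex and ordered by level, as mean and SD of 3 libraries for siControl (grey circles) and siNPM1 (red squares). Levels within complex I spanned 65.7-fold and within complex II 2.06-fold, while the groups' means lay close to each other for nearly all genes.

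Complex II was the most even, with means from 65.8 to 135.7 TPM. Complex I ran from 13.5 TPM (NDUFV3) to 886.2 TPM (NDUFS5) with a median of 120.8 TPM, complex III from 35.1 TPM (UQCRFS1) to 1270 TPM (UQCRH), and complex IV from 59.5 TPM (COX7B) to 1114 TPM (COX7C) with a median of 458.9 TPM. ATP synthase spanned 238-fold, from ATP5F1E at 6.01 TPM to ATP5MF at 1430 TPM. This span rested on ATP5F1E, as the next lowest tested gene, ATP5F1D, was at 46.1 TPM. In complex I the cofactor-binding subunits were not the abundant ones: the 7 core subunits of the matrix arm, which carry its flavin and iron-sulfur clusters, had a median of 77.0 TPM, below the 144.3 TPM of the 20 accessory subunits of the membrane arm. These levels rest on how reads were shared between overlapping and related transcripts. For 24 genes a different gene overlapped on the same strand, and for 11 of them the neighbour had a mean of at least 1 TPM, up to 11.8 TPM.

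Comparing siNPM1 with siControl over all 6 libraries, no subunit transcript passed the threshold of an adjusted p under 0.05 (limma on log2(TPM + 1), two-sided, Benjamini-Hochberg over 15768 genes). The background was low as well, at 4 of the 15768 genes (0.0254%). At an unadjusted p under 0.05 there were 7 subunit genes, NDUFB9 higher and 6 lower (NDUFB4, NDUFB8, UQCRB, UQCR10, ATP5ME and ATP5MC2), against 19.7% of all genes tested (13.2% higher and 6.45% lower). Of the 76 genes, 54 had a negative log2 fold change, or 71.1% against 40.1% of all genes tested. Their median was -0.12 and that of all genes 0.10. The sign of the subunits' median was the same when each library was centred on its own median, when mitochondrial and ribosomal protein genes were left out of the total, and under quantile normalization, where it was -0.01. Relative to the median of all genes, the subunits lay at -0.22 on the log2 scale as reported, -0.22 after centring and -0.23 after leaving out those genes, but at -0.02 under quantile normalization. The adjusted p values ran from 0.216 to 0.996. In bulk RNA, fewer cells of a type and less RNA per cell cannot be told apart.

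**Figure D2:**
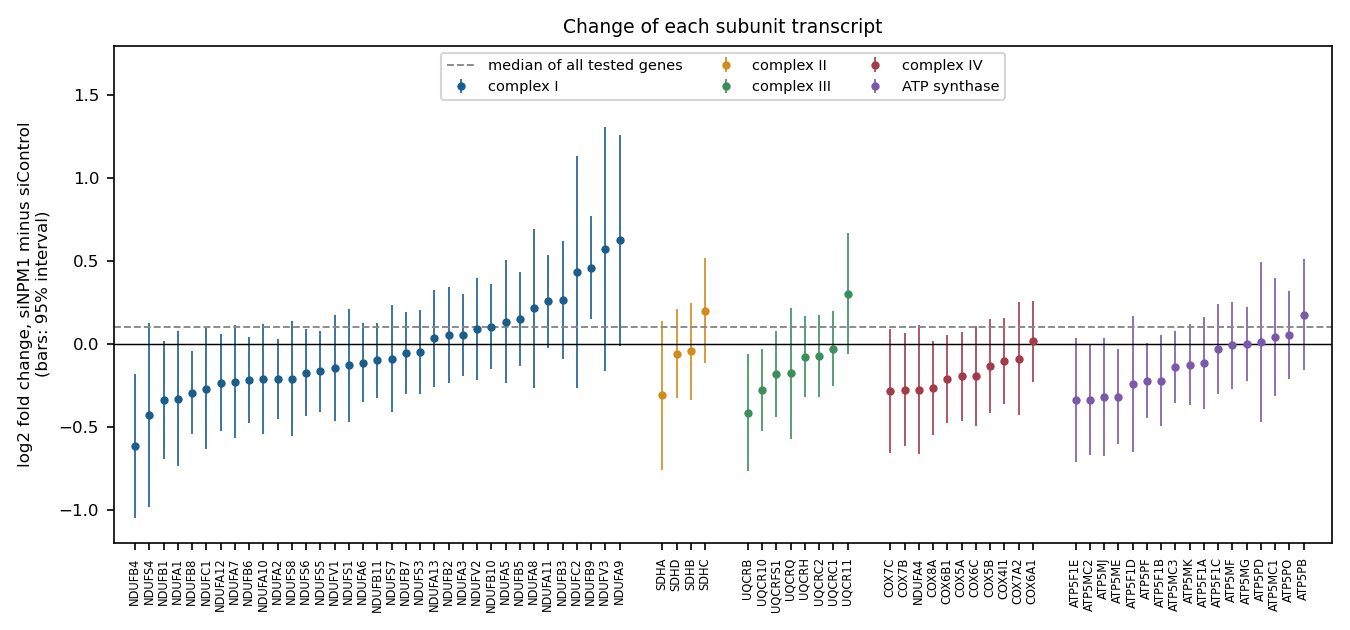
Log2 fold change (siNPM1 minus siControl, log2(TPM + 1) scale) of 75 subunit transcripts, each with its 95% interval from limma, ordered within each complex; the dashed line is the median of all tested genes. Of the 75 points, 53 lie below 0, and 7 intervals leave out 0.

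The precision limited what could be seen. The median SE of a subunit's log2 fold change was 0.123, and the 95% interval lay within 0.5 of 0 on either side for 42 of 76 genes and within 1 for 72. Differences inside each gene's interval therefore remained possible, and the absence of a call does not show equal levels. The groups did not overlap for 18 subunit genes, 2 higher under siNPM1 (background 16.2%) and 16 lower (background 8.55%), and for 58 they did. The exact two-sided permutation p of a gene without overlap is 0.1, the smallest that 3 against 3 libraries allow.

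Much of the spread lay within the control group. In 38 of the 76 genes siControl replicates 1 and 3 were both above the other 4 libraries, siControl replicate 2 included (background 20.9%), and in 13 they were both below (background 35.7%), so that in 51 genes the pair stood outside the rest. Without siControl replicate 2, 31 subunit genes passed the threshold, 9 higher and 22 lower, where 37.0% of all genes passed (24.1% higher and 12.9% lower). Of these 31 genes, 12 had the opposite sign when siNPM1 was set against siControl replicate 2 alone, 7 of the lower and 5 of the higher ones. The like share over all genes was not counted, so the 12 cannot be read as a trait of the subunits. Against that replicate alone the subunits' median was -0.04, and without it -0.17. The balance of calls without it also turned with the scaling: with mitochondrial and ribosomal protein genes left out of the total 12 genes were higher and 7 lower (background 30.3% and 9.38%), and with each library centred on its median 2 were higher and 42 lower (background 16.2% and 20.5%). With array weights, which gave siControl replicate 2 a weight of 0.0977, 47 subunit genes passed, 10 higher and 37 lower. Of all genes, 60.2% passed in either direction, a share that was not split by direction.

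**Figure D3:**
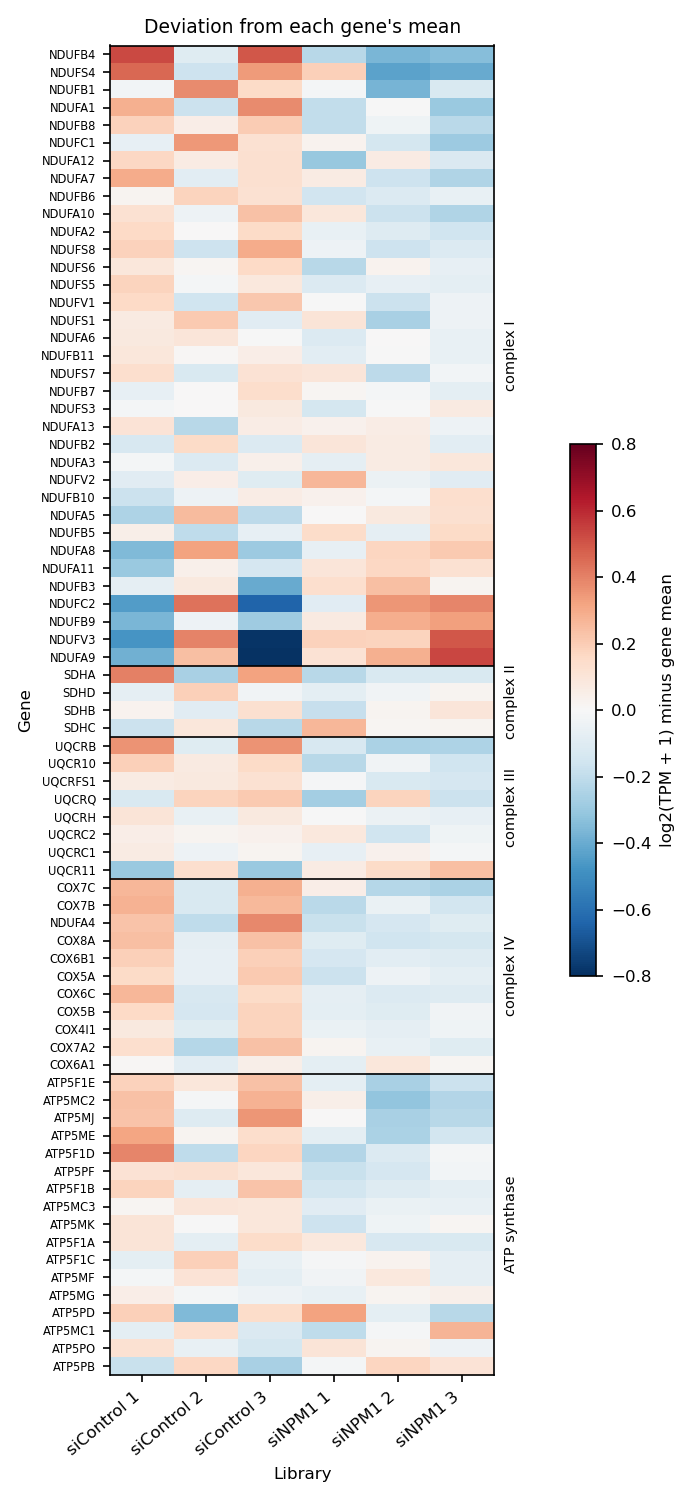
Deviation of log2(TPM + 1) from each gene's mean over the 6 libraries (red above, blue below), for 75 subunit genes ordered by fold change within each complex. In complex IV, 10 of 11 genes (background 20.9%) are redder in siControl replicates 1 and 3 than in the other 4 libraries, siControl replicate 2 included.

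Summed over all 77 genes, nuclear-encoded subunit transcripts came to 22758, 20519 and 22573 TPM under siControl and to 20460, 20085 and 19850 TPM under siNPM1. The siNPM1 libraries were all lower, but siControl replicate 2 stood next to the highest of them. As a share of the TPM outside mitochondrial transcripts the sums were 2.56, 2.68 and 2.54% under siControl and 2.52, 2.56 and 2.52% under siNPM1, and the groups overlapped. With ribosomal protein genes left out too, the shares were 3.57, 3.48 and 3.58% against 3.48, 3.46 and 3.41%. From lowest to highest library, these shares ranged over ratios of 1.06 and 1.05.

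The 13 subunits encoded in mitochondrial DNA behaved otherwise. They summed to 88618, 222515 and 88248 TPM under siControl and to 169784, 197746 and 193065 TPM under siNPM1, a range of 2.52-fold, with the highest and the lowest value both under siControl. The ratio of the mitochondrial to the nuclear-encoded sum came to 3.89, 10.8 and 3.91 under siControl and to 8.3, 9.85 and 9.73 under siNPM1. The ratio was thus lowest in siControl replicates 1 and 3 and highest in siControl replicate 2, and the groups overlapped. MT-ATP8 alone had a mean of 40814 TPM of the 133127 TPM under siControl, and of 55256 of 186865 TPM under siNPM1. How reads were shared between neighbouring mitochondrial genes is unknown, so the ratio does not count transcripts. All 13 genes had positive log2 fold changes (median 0.75), with 0 past the threshold by limma. At an unadjusted p under 0.05 there were 3, each higher (background 13.2%). In all 13, siControl replicates 1 and 3 were below the other 4 libraries (background 35.7%). Without siControl replicate 2, all 13 passed as higher (limma, adjusted p from 0.0013 to 0.0172), against a background of 24.1%. MT-CO1, the catalytic subunit of complex IV, was at 10181, 19184 and 9593 TPM under siControl and at 19384, 23891 and 24058 TPM under siNPM1. By complex, the ratio ran from 4.8 to 10.6 for complex I, from 0.301 to 2.3 for complex III, from 4.62 to 14.9 for complex IV and from 3.73 to 11.7 for ATP synthase.

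**Figure D4:**
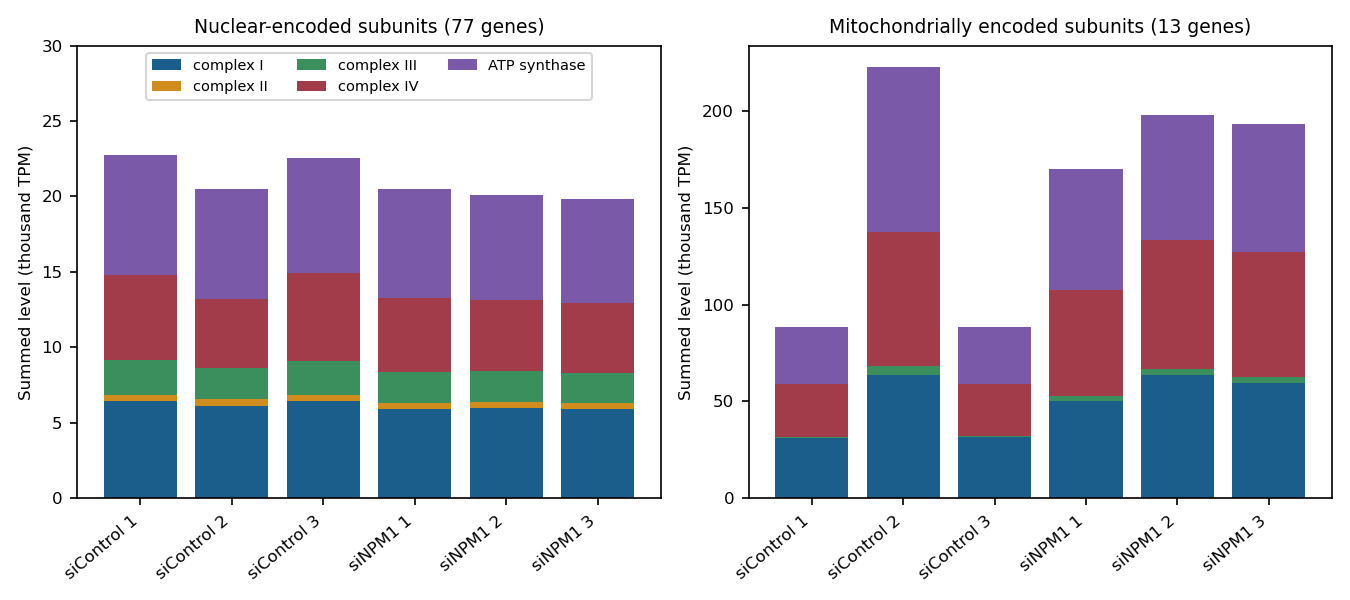
Summed TPM of the 77 nuclear-encoded (left) and the 13 mitochondrially encoded subunit genes (right) in each of the 6 libraries, stacked by complex; the vertical scales differ. The nuclear sums vary 1.15-fold, and the mitochondrial sums 2.52-fold with siControl replicates 1 and 3 lowest.

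Complex I, the entry point for electrons from NADH, held both the most negative and the most positive subunits. Of its 36 genes 22 were negative and 14 positive, with a median of -0.10, or -0.02 with mitochondrial and ribosomal protein genes left out of the total. Counts of negative genes here and below are to be read against the 40.1% of all genes tested. The 7 core subunits of the matrix arm differed little: 6 were negative, and the fold changes ran from -0.21 to 0.09. NDUFV1, which binds NADH and the flavin, was at 106.0, 84.8 and 110.2 TPM under siControl and at 94.8, 83.9 and 92.2 TPM under siNPM1 (log2 fold change -0.14 ± 0.134, adjusted p = 0.537 by limma). Its level in siControl replicate 2 lay within the siNPM1 range. NDUFS1, the largest iron-sulfur subunit, was at 52.1, 57.4 and 46.4 against 53.3, 41.2 and 48.0 TPM, and the groups overlapped.

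The accessory subunits, which surround the core and serve its assembly and stability, spread wider. The membrane arm gave both the lowest p and the most negative fold change. NDUFB4, a small subunit of the distal membrane arm (chr3:120596309-120602500, plus strand), was at 500.5, 323.6 and 489.4 TPM under siControl and at 296.6, 268.8 and 274.0 TPM under siNPM1. The groups did not overlap, and the siNPM1 mean was 0.639 of the siControl mean (log2 fold change -0.62 ± 0.183, adjusted p = 0.217 by limma). It passed without siControl replicate 2 (-0.82, adjusted p = 0.00232), and against that replicate alone it was at -0.21. The gene was the one with 3 NRF1 matches in the promoter printed above.

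NDUFB9, a membrane arm subunit of the LYR protein family on chromosome 8, was at 196.0, 245.4 and 207.5 TPM under siControl and at 265.6, 308.8 and 318.2 TPM under siNPM1. The siNPM1 libraries were all higher, by a log2 fold change of 0.46 ± 0.131 (adjusted p = 0.216 by limma). It passed without siControl replicate 2 (0.55, adjusted p = 0.012), and against that replicate alone it was at 0.27. NDUFB4 and NDUFB9, which sit in the same arm, thus differed between the groups in opposite directions, each without overlap. NDUFA11, also in the membrane arm and chosen after its values were seen, was the other gene with all siNPM1 libraries higher, at 147.3 to 155.1 against 112.2 to 142.1 TPM (0.34 without siControl replicate 2, adjusted p = 0.0236 by limma). NDUFS5, the most abundant complex I transcript, was at 1002, 874.5 and 937.2 TPM under siControl and 820.7, 846.1 and 836.9 TPM under siNPM1; the groups did not overlap, but its direction turned under quantile normalization. It passed without siControl replicate 2 (-0.22, adjusted p = 0.0422 by limma).

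Some further membrane arm genes were chosen after their values were seen. NDUFB8 was at 298.4, 273.0 and 302.9 TPM under siControl and 229.3, 256.9 and 226.3 TPM under siNPM1, without overlap (-0.30 ± 0.105, adjusted p = 0.236 by limma). Its control libraries lay close together, siControl replicate 2 included, and without that replicate it passed (-0.34, adjusted p = 0.0252 by limma). NDUFC2 varied widely within siControl: it was at 144.4, 266.8 and 126.1 against 184.8, 252.6 and 258.9 TPM, so that siControl replicate 2 exceeded every siNPM1 library, and its 95% interval ran from -0.27 to 1.14. It passed as higher without that replicate (0.76, adjusted p = 0.0224 by limma), and against that replicate alone it was at -0.22. NDUFB1 was at 330.9, 437.9 and 375.1 against 333.1, 259.7 and 308.8 TPM, and the groups overlapped; siControl replicate 2 was its highest library.

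In the matrix arm, 3 accessory subunits were positive and 6 negative. NDUFA9, a subunit at the joint of the arms (chr12:4649095-4694317, plus strand), was at 30.5, 47.6 and 22.8 TPM under siControl and at 43.5, 49.1 and 58.7 TPM under siNPM1. This was the largest positive fold change among the subunits (0.62 ± 0.268, adjusted p = 0.259 by limma), but siControl replicate 2 lay inside the siNPM1 range, and against it alone the value was 0.07; without it the gene passed (0.90, adjusted p = 0.0161 by limma). A gene overlapping NDUFA9 on the same strand had a mean of 18.3% of its level. NDUFV3, an accessory subunit beside the flavin site and the scarcest complex I transcript, was at 8.94, 17.2 and 7.01 against 14.7, 14.6 and 18.5 TPM, with siControl replicate 2 the second highest value of the 6. Its fold change, 0.57 with all libraries, passed without siControl replicate 2 (0.92, adjusted p = 0.0119 by limma) and was -0.11 against that replicate alone. NDUFS4, chosen after its values were seen, was at 160.4, 103.6 and 147.7 against 132.9, 86.1 and 87.5 TPM, and the groups overlapped; loss of its protein destabilises the NADH-oxidising end of the complex.

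**Figure D5:**
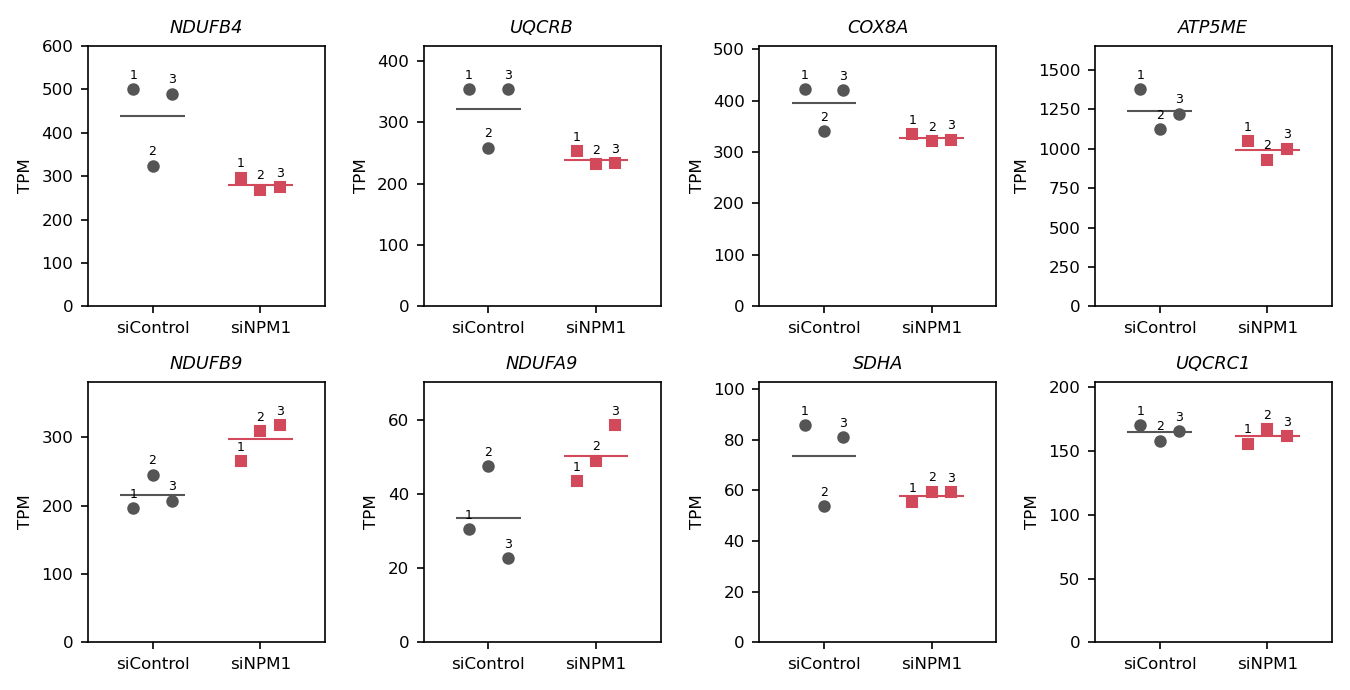
TPM in each library (points, numbered by replicate) and group mean (line) for 8 subunit genes, each axis starting at 0. NDUFB4, UQCRB, COX8A and ATP5ME are lower and NDUFB9 higher in all siNPM1 libraries, whereas for NDUFA9 and SDHA siControl replicate 2 lies with siNPM1.

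Complex II, succinate dehydrogenase, had sums that depended on the scale. Its 4 genes summed to 396.5, 403.6 and 397.0 TPM under siControl and to 396.5, 389.8 and 398.0 TPM under siNPM1, a range of 1.04-fold. As a share of TPM outside mitochondrial transcripts they came to 0.0445, 0.0526 and 0.0447% against 0.0487, 0.0497 and 0.0506%, a range of 1.18-fold with siControl replicates 1 and 3 lowest. Their median log2 fold change of -0.05 turned positive when mitochondrial and ribosomal protein genes were left out of the total and under quantile normalization (0.03 and 0.02). SDHA, the flavoprotein that oxidises succinate, was at 85.8, 53.8 and 81.0 TPM under siControl and at 55.3, 59.4 and 59.2 TPM under siNPM1 (-0.31 ± 0.188, adjusted p = 0.366 by limma). Only siControl replicates 1 and 3 were high: SDHA passed as lower without replicate 2 (-0.52, adjusted p = 0.00712 by limma), and against replicate 2 alone the value was 0.11. SDHA was also the only gene of the 48 with pseudogene rows whose copies summed to over 5% of its level. These rows came to 19.4, 26.8 and 16.9 TPM under siControl and to 24.9, 32.2 and 32.9 TPM under siNPM1, low where SDHA was high, and SDHA with its copies came to 105.2, 80.5 and 98.0 against 80.2, 91.7 and 92.1 TPM. The value of SDHA alone is uncertain for that reason.

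The iron-sulfur subunit SDHB was at 84.2, 77.7 and 90.4 TPM under siControl and 72.7, 83.9 and 88.3 TPM under siNPM1, and the groups overlapped. Of the membrane anchors, SDHC was at 119.7, 143.9 and 115.4 against 162.3, 136.2 and 136.6 TPM, the only positive fold change of the complex (0.20 ± 0.133, adjusted p = 0.404 by limma). SDHD was at 106.7, 128.2 and 110.2 against 106.2, 110.2 and 113.9 TPM. In both, siControl replicate 2 was above the other control libraries.

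Complex III, the cytochrome bc1 complex, had 7 of 8 genes negative, with a median of -0.13. UQCRB, a small subunit near the ubiquinone site (chr8:96225920-96235634, minus strand), was at 353.9, 258.4 and 353.6 TPM under siControl and at 252.8, 231.5 and 232.8 TPM under siNPM1. The groups did not overlap (log2 fold change -0.41 ± 0.149, adjusted p = 0.237 by limma), but the lowest control exceeded the highest siNPM1 library by little. It passed without that control, siControl replicate 2 (-0.56, adjusted p = 0.00455 by limma). UQCR10, another small subunit and chosen after its values were seen, was at 132.3, 122.0 and 128.8 against 99.0, 113.5 and 103.4 TPM, with the control libraries close together (-0.28 ± 0.104, adjusted p = 0.240 by limma). UQCR11, the only positive gene, was at 37.0, 50.2 and 36.9 against 47.7, 50.8 and 54.1 TPM, and here too siControl replicate 2 lay with siNPM1. Without that replicate both passed, UQCR10 at -0.31 and UQCR11 at 0.45 (limma, adjusted p = 0.0374 and 0.0145).

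The Rieske, core and hinge proteins of complex III lay closer together. UQCRFS1, the Rieske iron-sulfur protein and the scarcest transcript of the complex, was at 36.7, 37.0 and 38.2 TPM under siControl and at 34.7, 32.0 and 31.8 TPM under siNPM1. Its groups did not overlap and its control libraries lay close together (-0.18 ± 0.108, adjusted p = 0.361 by limma). UQCRC1, a core protein of the matrix side, was at 170.2, 158.0 and 165.2 against 155.5, 166.9 and 161.2 TPM, with a 95% interval of -0.25 to 0.20. UQCRH, the hinge protein at the cytochrome c side, was the most abundant at 1361, 1217 and 1337 against 1268, 1228 and 1211 TPM; the groups overlapped, and its fold change of -0.08 was 0.01 with mitochondrial and ribosomal protein genes left out of the total. CYC1, the cytochrome that receives electrons from the Rieske protein and no member by symbol, was at 84.6, 78.1 and 78.7 against 69.0, 67.0 and 66.6 TPM (-0.25 ± 0.098, adjusted p = 0.245 by limma; -0.27 and 0.0374 without siControl replicate 2).

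Complex IV, cytochrome c oxidase, was nearly uniform in direction when all 6 libraries entered. Of its 11 genes 10 were negative (background 40.1%). In 10 genes siControl replicates 1 and 3 were above all other libraries (background 20.9%). The nuclear-encoded sums were 5658, 4614 and 5781 TPM under siControl and 4857, 4711 and 4654 TPM under siNPM1, so that siControl replicate 2 was the lowest of all 6. The median log2 fold change was -0.20 with all libraries and -0.30 without siControl replicate 2, where 8 genes passed as lower (background 12.9%). Against that replicate alone the median was 0.04, so its sign turned. As a share of TPM outside mitochondrial transcripts the sums were 0.635, 0.602 and 0.651% against 0.597, 0.601 and 0.591%, lower in all siNPM1 libraries, though siControl replicate 2 differed from the highest of them by less than the control SD of 0.0249.

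COX4I1, the largest nuclear-encoded subunit and a site of regulation by ATP, was at 552.5, 488.8 and 590.8 TPM under siControl and at 504.5, 498.1 and 510.5 TPM under siNPM1 (-0.10 ± 0.109, adjusted p = 0.581 by limma; 0.09 under quantile normalization). COX5A, on the matrix side, was at 310.8, 267.0 and 322.8 against 247.6, 271.4 and 265.3 TPM. In both, siControl replicate 2 was close to or below the siNPM1 libraries. COX7C, a subunit with a single membrane helix and the most abundant and most negative of the complex, was at 1323, 1011 and 1342 against 1144, 941.2 and 924.8 TPM (-0.28 ± 0.157, adjusted p = 0.335 by limma). COX8A, another small membrane subunit, had the smallest p of the complex at 422.5, 340.8 and 420.6 against 334.5, 320.8 and 324.1 TPM. Its groups did not overlap (-0.27 ± 0.119, adjusted p = 0.269 by limma). COX7B, the scarcest, was at 71.7, 54.2 and 70.7 against 50.6, 56.9 and 53.1 TPM. COX6A1 was the exception at 708.4, 661.3 and 727.2 against 665.9, 746.9 and 709.8 TPM, a log2 fold change of 0.02 that turned negative after centring each library on its median. NDUFA4, chosen after its values were seen, was at 165.8, 122.9 and 185.3 against 125.1, 128.6 and 132.2 TPM. Without siControl replicate 2, COX5A (-0.28), COX7C (-0.42), COX8A (-0.37), COX7B (-0.41) and NDUFA4 (-0.44) passed as lower, with adjusted p from limma of 0.0308, 0.0344, 0.00851, 0.0168 and 0.0114; against that replicate alone NDUFA4 was at 0.07 (COX5A -0.03, COX7C -0.02, COX8A -0.06 and COX7B -0.02).

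ATP synthase had 12 of 17 tested genes negative with a median of -0.13, which was 0.05 under quantile normalization. Its sums were 7947, 7297 and 7674 TPM under siControl and 7210, 6964 and 6905 TPM under siNPM1. The 5 genes of the catalytic F1 head were all negative, with a median of -0.22, or -0.14 with mitochondrial and ribosomal protein genes left out of the total. ATP5F1B, the beta subunit that holds the catalytic sites, was at 733.6, 618.3 and 759.4 TPM under siControl and at 586.7, 603.5 and 613.7 TPM under siNPM1 (-0.22 ± 0.115, adjusted p = 0.312 by limma), with siControl replicate 2 just above the siNPM1 libraries. It passed without that replicate (-0.31, adjusted p = 0.0136 by limma), and against it alone it was at -0.04. ATP5F1A, the alpha subunit that alternates with beta in the head, was at 575.8, 507.4 and 593.8 against 567.5, 490.7 and 491.8 TPM; the groups overlapped, and its fold change of -0.11 was 0.07 under quantile normalization. ATP5F1E, the epsilon subunit of the central stalk, had the most negative fold change of the complex at 6.89, 6.41 and 7.18 against 5.59, 4.8 and 5.18 TPM (-0.34 ± 0.157, adjusted p = 0.278 by limma). Its level was far below that of its partners, 6.01 against 652.5 TPM for ATP5F1B. The counter and annotation release are not given, and the part they play in this level was not tested.

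The 4 genes of the peripheral stalk, which holds the head still against the rotor, had a median of 0.03. ATP5PB, the b subunit, was the most positive gene of the complex at 135.8, 172.5 and 128.3 TPM under siControl and at 151.7, 173.1 and 165.5 TPM under siNPM1 (0.18 ± 0.140, adjusted p = 0.473 by limma). Its siControl replicate 2 was nearly level with the highest siNPM1 library: without that replicate the gene passed as higher (0.30, adjusted p = 0.0389 by limma), and against it alone it was at -0.08. ATP5PF, coupling factor F6 of the stalk and chosen after its values were seen, had the closest control libraries of the stalk at 323.9, 326.0 and 318.3 against 264.4, 271.9 and 294.6 TPM, without overlap (-0.22 ± 0.095, adjusted p = 0.260 by limma). ATP5PD, its d subunit, also chosen afterwards, was at 716.6, 492.2 and 696.1 against 785.2, 596.0 and 538.3 TPM, and siControl replicate 2 was the lowest library. Among the small membrane subunits, ATP5MF (f) was at 1413, 1538 and 1352 against 1400, 1516 and 1358 TPM, a fold change near 0. ATP5ME (e), which takes part in the pairing of ATP synthase into dimers, had the smallest p of the complex. It was at 1379, 1123 and 1223 TPM under siControl and at 1049, 931.4 and 1001 TPM under siNPM1, without overlap (-0.32 ± 0.120, adjusted p = 0.242 by limma). Subunits e and f are neighbours in the membrane, and without siControl replicate 2 their transcripts stood at -0.39 and 0.04 (limma, adjusted p = 0.022 and 0.678).

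The c subunit, which forms the rotor ring of ATP synthase, is encoded by 3 genes on 3 chromosomes whose mature proteins are alike. The final 234 coding bases of each, from GENCODE release 29 (GRCh38), are shown because they are the longest coding end that reads as the same 77 amino acids in all 3 genes, from different codons. These are ATP5MC1 (chr17:48892765-48895871, plus strand), ATP5MC2 (chr12:53632726-53677408, minus strand) and ATP5MC3 (chr2:175176258-175184607, minus strand), the coordinates being those of the genes. Capitals mark the 58 positions at which the 3 genes differ.
ATP5MC1: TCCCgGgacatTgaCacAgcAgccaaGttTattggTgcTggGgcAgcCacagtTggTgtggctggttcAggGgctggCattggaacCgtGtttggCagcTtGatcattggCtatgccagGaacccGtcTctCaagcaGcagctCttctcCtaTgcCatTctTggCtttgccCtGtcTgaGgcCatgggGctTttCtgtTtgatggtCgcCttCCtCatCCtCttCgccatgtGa
ATP5MC2: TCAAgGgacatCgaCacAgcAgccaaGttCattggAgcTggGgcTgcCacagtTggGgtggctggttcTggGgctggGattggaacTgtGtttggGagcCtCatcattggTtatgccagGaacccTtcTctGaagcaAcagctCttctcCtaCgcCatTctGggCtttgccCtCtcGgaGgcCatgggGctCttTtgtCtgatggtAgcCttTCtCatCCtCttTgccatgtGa
ATP5MC3: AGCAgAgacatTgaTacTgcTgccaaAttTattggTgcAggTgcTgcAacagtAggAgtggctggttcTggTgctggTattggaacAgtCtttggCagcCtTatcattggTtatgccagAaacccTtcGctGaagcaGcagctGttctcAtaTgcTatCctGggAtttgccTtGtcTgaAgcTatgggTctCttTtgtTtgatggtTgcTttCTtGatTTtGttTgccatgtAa

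ATP5MC1 and ATP5MC2 differed at 27 of 234 bases (88.5% alike), and either differed from ATP5MC3 at 47 (79.9% alike), with 0 of 77 amino acids differing. The longest stretch shared without a difference was 17 bases for ATP5MC2 with either of the others and 11 bases for ATP5MC1 with ATP5MC3. Together the 3 transcripts came to 854.0, 841.3 and 874.2 TPM under siControl and to 770.8, 726.9 and 789.4 TPM under siNPM1, lower in all siNPM1 libraries. ATP5MC2 was at 394.9, 333.7 and 407.4 against 346.6, 269.2 and 285.0 TPM (-0.34 ± 0.140, adjusted p = 0.252 by limma), and its groups overlapped at siNPM1 replicate 1; it passed without siControl replicate 2 (-0.42, adjusted p = 0.0429). ATP5MC3 was at 248.2, 263.0 and 261.7 against 230.4, 236.1 and 235.7 TPM, without overlap, though its sign turned under quantile normalization (0.02). ATP5MC1 was at 210.9, 244.6 and 205.2 against 193.7, 221.6 and 268.7 TPM and overlapped. The share of ATP5MC2 in the sum was 46.2, 39.7 and 46.6% under siControl and 45.0, 37.0 and 36.1% under siNPM1, and that of ATP5MC1 was 24.7, 29.1 and 23.5% against 25.1, 30.5 and 34.0%. The groups overlapped in both shares.

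Other genes of the pathway were counted over whole lists, with 0 past the threshold by limma in each when all 6 libraries entered. Counts at an unadjusted p under 0.05 are to be read against the 13.2% higher and 6.45% lower of all genes, and calls without siControl replicate 2 against the 24.1% higher and 12.9% lower. Of the 47 assembly factors, which build the complexes without being part of them, 28 were positive and 19 negative with a median of 0.13, and 13 had an unadjusted p under 0.05 (9 higher and 4 lower). When siControl replicate 2 was left out, 19 passed as higher and 5 as lower. COX14, a factor for the early steps of complex IV, was at 56.5, 38.7 and 58.5 TPM under siControl and at 22.4, 29.0 and 28.2 TPM under siNPM1 (-0.91 ± 0.197, adjusted p = 0.184 by limma), without overlap. NDUFAF7, a methyltransferase of complex I assembly, was at 59.2, 58.1 and 69.1 against 115.4, 86.5 and 89.0 TPM (0.62 ± 0.150, adjusted p = 0.201 by limma), also without overlap. In siControl replicate 2, COX14 lay between the other control libraries and siNPM1, and NDUFAF7 lay with its own group. Without that replicate both passed, at -1.10 and 0.58 (limma, adjusted p = 0.00455 and 0.0361).

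Of the 17 regulators of mitochondrial genes, 12 were positive and 5 negative with a median of 0.12, and 7 had an unadjusted p under 0.05 (6 higher and 1 lower). Without siControl replicate 2, 6 passed as higher and 1 as lower. PPRC1, a coactivator related to PGC-1, was at 18.5, 25.6 and 19.0 TPM under siControl and 34.2, 32.3 and 33.6 TPM under siNPM1 (0.66 ± 0.155, adjusted p = 0.199 by limma). ESRRA, a nuclear receptor that binds promoters of respiratory genes, was at 22.4, 14.4 and 16.2 against 11.6, 9.9 and 12.5 TPM (-0.58 ± 0.197, adjusted p = 0.230 by limma). Neither gene's groups overlapped, and without siControl replicate 2 both passed, at 0.80 and -0.71 (limma, adjusted p = 0.00312 and 0.0296). Of the 13 citric acid cycle enzymes, which feed the chain, 11 were negative and 2 positive with a median of -0.18, and 5 had an unadjusted p under 0.05, each lower. Without siControl replicate 2, 1 passed as higher and 6 as lower. SUCLG2, a subunit of succinyl-CoA ligase, was at 65.7, 52.6 and 61.8 against 43.0, 34.8 and 35.3 TPM, without overlap (-0.66 ± 0.143, adjusted p = 0.186 by limma). DLD, a dehydrogenase subunit shared by several enzyme complexes, was at 46.0, 66.4 and 43.4 against 61.8, 57.8 and 59.5 TPM (0.22 ± 0.175, adjusted p = 0.469 by limma). Its groups overlapped, with siControl replicate 2 above every siNPM1 library. Without that replicate SUCLG2 and DLD passed, at -0.75 and 0.41 (limma, adjusted p = 0.00875 and 0.0138).

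Of the 12 other subunits and isoforms, 7 were tested, with 2 positive and 5 negative, and 2 passed as lower without siControl replicate 2. COX6B2, a testis isoform of complex IV, was low at 1.93, 0.88 and 3.8 TPM under siControl and 7.4, 4.31 and 2.94 TPM under siNPM1, and the groups overlapped. NDUFAB1, the complex I subunit left out by symbol, was at 223.7, 164.3 and 232.7 against 238.8, 161.5 and 179.2 TPM, and the groups overlapped. CYC1, given above, was the only gene of this list with an unadjusted p under 0.05. COX4I2, the counterpart of COX4I1 in lung, was listed at 0 in 5 libraries, while COX4I1 had at least 488.8 TPM in each.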

How the data were processed

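RNA-seq of H9 cells, 3 siControl and 3 siNPM1 libraries grouped by title, was deposited by the authors as 1 table of TPM values; GRCh38 is the build that the submitters' processing notes name. Aligner, counter, annotation release and strand setting: not given in the sources used here, so reads shared with antisense or overlapping genes cannot be followed. TPM keeps no depth. On the log2(TPM + 1) scale (pseudocount 1), 15768 genes whose mean reached 1 TPM entered limma 3.58.1 (R 4.3.3; variance trend, two-sided, Benjamini-Hochberg adjustment, threshold 0.05). The authors' group mean columns entered no test. The fit was checked on simulated data. Positions come from GENCODE release 29 (GRCh38), which held 58279 of the table's identifiers (92.9%) and all 77 members, and promoters from RefSeq.

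The members and lists were chosen with earlier results of these data known. Named genes were, per complex, the highest and lowest mean level, the largest fold change each way and the smallest p, with a fixed set of catalytic and well-known subunits, and from each other list the smallest p each way. Alternatives covered the pseudocount, the filter, scaling, array weights, a replicate block and each library left out. The single values of 1 member are not reported here, while counts, medians and sums include it.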

Additional observations from a re-analysis of the deposited data

How the results depend on the processing

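Of the recomputed values of all results, 41 counts or medians moved beyond the spread between replicates, 85 did not, and 39 single-gene values turned sign; 70 single-gene values passed the threshold under an alternative. The cause of these moves was not tested. The count of 0 subunit genes past the threshold became 47 with array weights and ran from 0 to 31 with 1 library left out, 31 being the value without siControl replicate 2. Chosen after seeing the data, fits without that replicate gave 19 genes with mitochondrial and ribosomal protein genes left out of the total and 44 with libraries centred on their medians. The replicate numbers did not pair the libraries (correlations of deviations 0.0652, 0.0814 and -0.0383). With the replicate number as a block 0 subunit genes passed, where 1 of all 15768 genes passed, and the subunits' median was -0.119.

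The median log2 fold change of all subunits, -0.119 as reported, was -0.245 centred, -0.034 with mitochondrial and ribosomal protein genes left out, -0.014 quantile normalized and -0.04 against siControl replicate 2 alone, and without that replicate -0.049 with those genes left out and -0.338 centred. In the same order complex I was at -0.229, -0.018, -0.022, -0.053, 0.013 and -0.277, complex II at -0.178, 0.033, 0.02, 0.036, 0.08 and -0.21, and complex III at -0.254, -0.043, -0.092, -0.086, -0.01 and -0.3. With 1 library left out complex I ran from -0.106 to -0.06 and complex III from -0.129 to -0.095. Complex IV moved to -0.039 quantile normalized, 0.036 against siControl replicate 2 alone and -0.466 centred without it. ATP synthase moved to -0.251 centred, -0.039 with those genes left out and 0.049 quantile normalized, and without siControl replicate 2 to -0.04 and -0.332. Array weights gave 0.026 for complex II and -0.19 for ATP synthase.

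Against siControl replicate 2 alone the sign turned for NDUFV3 (-0.115), SDHA (0.106), UQCRH (0.022), ATP5PB (-0.08), NDUFV1 (0.087), SDHB (0.065), UQCRC1 (0.028), COX4I1 (0.045), ATP5F1A (0.023) and ATP5MC1 (-0.114). Under quantile normalization it turned for NDUFS5 (0.014), ATP5MF (0.066), SDHB (0.025), UQCRC1 (0.046), COX4I1 (0.091), ATP5F1A (0.069) and ATP5MC3 (0.017). With mitochondrial and ribosomal protein genes left out it turned for UQCRH (0.008), ATP5MF (0.076), SDHB (0.04) and UQCRC1 (0.056), and without siControl replicate 2 as well for ATP5MF (0.162), NDUFS1 (0.061), SDHB (0.019) and UQCRC1 (0.063). Centring turned COX6A1 (-0.109) and ATP5MC1 (-0.085), and without siControl replicate 2 gave -0.193 and -0.052, while array weights turned ATP5MF (0.022). With 1 library left out, COX6A1 ran from -0.023 to 0.06, ATP5MF from -0.055 to 0.042, SDHB from -0.103 to 0.035 and ATP5MC1 from -0.083 to 0.152. The depth is unknown from TPM, so its limit on scarce transcripts such as ATP5F1E could not be given.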
